A study of Mus musculus with 6 samples.

Results

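Acinar cell enzymes and factors were followed in RNA of pancreatic islets from OF1 male mice, 10 weeks old, on 6 Affymetrix 3′ expression arrays. The members were 34 genes chosen by name, and every probe set (the group of array probes that reports 1 transcript) annotated to a single one of them was taken. Of the 34 genes, 27 had such a probe set, with 46 probe sets in all among 45037 on the array. The 7 genes without a probe set of their own were Pnlip, Amy2a5, Amy2b, Prss1, Try4, Try5 and Try10, and 5 further probe sets were annotated to a member together with other genes. Control mice (3 samples) received tocopherol-stripped corn oil and the other 3 samples came from mice given bisphenol A (BPA), a building block of plastics with oestrogen-like activity. The labels do not agree on the dosing. The series' design gives 100 µg/kg/day under the skin, as 2 injections of 50 µg/kg/day, for 4 days, with islets taken 16 hours after dosing ended. The treatment protocol gives 2 days at that daily dose, and the BPA samples' source names give 1 nM for 48 hours. The labels do not say how many animals each sample pools, and they name no transgene or cell sort.

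Acinar cells make up most of the pancreas and surround the islets. They store inactive digestive enzymes (zymogens) in apical granules and release them into the ducts, and their genes are switched on by PTF1, a complex of PTF1A, a common E protein and RBPJL, with BHLHA15 (MIST1) and NR5A2. Islets are usually freed from this tissue with collagenase, and acinar cells or their RNA can be carried along. In such bulk samples, fewer acinar cells and less RNA per acinar cell cannot be told apart. Endocrine markers read high on these arrays (Ins2 between 15.24 and 15.32, Gcg between 14.98 and 15.14, on the log2 scale), and acinar markers were present beside them on every array.

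The acinar genes differed several-fold between arrays, and nearly all of them in the same order. Of the 27 genes, 26 had a probe set above the signal filter (a mean over the 6 arrays above 6.60 on the log2 scale, the median probe set), and Rbpjl lay below it. Relative to each gene's own mean over the 6 arrays, the median of the 26 genes stood at 0.30, 0.71 and -1.50 in controls 1, 2 and 3, then at 0.92, 0.0040 and -0.58 in BPA arrays 1, 2 and 3 (log2 differences). BPA replicate 1 was therefore the highest array and control replicate 3 the lowest, with a median ratio of 5.98 between them over the 26 genes. Within the controls alone, replicate 2 exceeded replicate 3 by a median of 4.72 times, and within the BPA samples replicate 1 exceeded replicate 3 by 2.73 times.

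Of the 26 genes, 26 were highest in BPA replicate 1 and 24 were lowest in control replicate 3, where 22.5% and 21.7% of the 11787 genes measured had those extremes. The full order, from BPA 1 through control 2, control 1, BPA 2 and BPA 3 to control 3, was taken from the values themselves. It held for 22 of the 26 genes and for 104 of all 11787 (0.882%). The 4 genes outside it were Ctrb1, Bhlha15, Klk1 and Zg16. The median range over the arrays was 2.58 (log2) for the acinar genes and 0.47 for all genes measured. Of the 26, 18 spanned 2 or more, as did 110 (0.933%) of the 11787 genes measured. Without control replicate 3, 10 of the 26 spanned 2 or more. The first principal axis of the 26 genes held 95.7% of their variance. Their 40 kept probe sets, 0.178% of those tested, held 2.27% of the sum of squares of all 22518 kept probe sets.

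**Figure D1:**
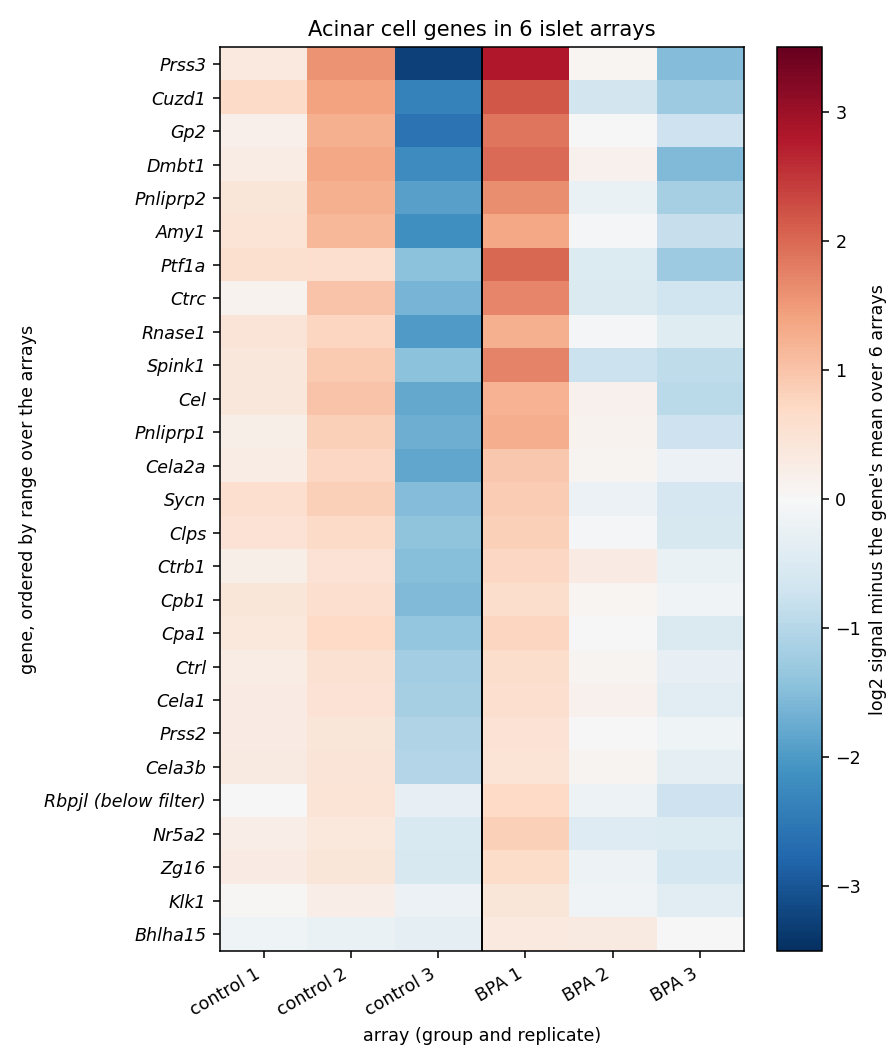
Log2 signal of 27 acinar cell genes (rows, ordered by their range) in 6 islet arrays (columns), with each gene's mean over the arrays subtracted. Red is above and blue below that mean; the BPA 1 column is above and the control 3 column below the mean in all 27 rows, and Bhlha15 is above its mean in all 3 BPA arrays and below it in all 3 controls.

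Of the endopeptidases, the trypsinogens gave the widest and some of the narrowest ranges. Prss3, a trypsinogen gene, read 7.72, 8.95 and 4.12 in controls 1 to 3, against 10.17, 7.44 and 5.87 in BPA arrays 1 to 3; values below follow the same order of replicates. Its range of 6.05 (66.3-fold) was the largest of the 27 genes, and the groups overlapped. The lowest reading, 4.12, lay below the filter level of 6.60, so the size of this range rests on a dim value. Prss2, which encodes anionic trypsinogen, read 14.70, 14.86 and 13.37 in controls and 14.93, 14.44 and 14.27 after BPA on its brightest probe set, a range of 1.55. On that probe set the order of the arrays was the same as for Prss3. The other 3 probe sets of Prss2 spanned 1.97 to 3.17, and not all kept that order. On the widest of them, BPA replicate 2 (13.55) lay above control replicate 1 (13.50). The narrowest of them was highest in control replicate 2, at 14.70. Trypsinogen genes are close copies of each other, so signal may be shared between them. A probe set annotated to Try4 and Try5 together read 13.68, 14.22 and 10.01 in controls and 14.66, 13.46 and 13.41 after BPA. It set control replicate 3 apart from the other 5 arrays, which lay within 1.25 of each other. A probe set annotated to 4 genes, Prss1 and Prss3 among them, spanned 7.88, from 3.98 in control replicate 3 to 11.86 in BPA replicate 1. Its low end was likewise a dim value.

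The chymotrypsinogen genes Ctrb1 and Ctrl spanned 2.20 and 1.83, and Ctrc, whose product also degrades trypsinogen, spanned 3.33. Ctrb1 read 14.31, 14.61 and 12.63 in controls and 14.83, 14.41 and 13.89 after BPA. BPA replicate 2 thus lay above control replicate 1, and elsewhere its order was the common one. Of the elastase genes, Cela1 spanned 1.77, Cela2a 2.75 and the brightest probe set of Cela3b 1.51, and all 3 kept the common order. The carboxypeptidase genes Cpa1 and Cpb1, whose products trim the ends of peptides, spanned 2.11 and 2.18. Cpa1 lay close to the middle of the whole set: it read 14.27, 14.57 and 12.54 in controls and 14.65, 13.91 and 13.39 after BPA.

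The 5 single-gene members of lipid and starch digestion, Cel, Pnliprp1, Pnliprp2, Clps and Amy1, kept the common order. Cel, which encodes bile salt-stimulated lipase, read 13.94, 14.56 and 11.76 in controls and 14.77, 13.70 and 12.62 after BPA, an 8.05-fold range. The lipase-related genes Pnliprp1 and Pnliprp2 spanned 2.96 and 3.53, and Clps, which encodes the colipase that anchors pancreatic lipase, spanned 2.25. Amy1, the amylase gene of salivary gland and liver, is expressed in pancreas at lower levels and shares sequence with the pancreatic amylase genes. It read 7.89, 8.56 and 5.26 in controls and 8.75, 7.36 and 6.59 after BPA. A probe set annotated to 5 pancreatic amylase genes of the Amy2a cluster had a much narrower range, 0.55, and did not keep the order: it read 15.02, 15.05 and 14.50 in controls and 15.03, 14.94 and 14.78 after BPA, highest in control replicate 2. The highest signal of any probe set was 15.24 to 15.32 per array. Rnase1, the pancreatic ribonuclease gene, spanned 3.23.

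Of the genes of granule proteins, Cuzd1, Gp2 and Dmbt1 spanned over 4 on the log2 scale, while Sycn and Zg16 spanned less than the members' median of 2.58. Cuzd1, which encodes a granule membrane protein, read 11.56, 12.30 and 8.51 in controls and 13.05, 10.24 and 9.62 after BPA. Gp2, the main glycoprotein of that membrane, read 12.10, 13.17 and 9.35 in controls and 13.79, 11.91 and 11.19 after BPA. Dmbt1, a scavenger receptor glycoprotein gene, spanned 4.21. These 3 genes differed 18.4-fold to 23.2-fold between BPA replicate 1 and control replicate 3. Sycn, which encodes the granule protein syncollin, spanned 2.41, and Spink1, the trypsin inhibitor gene, spanned 3.19. Spink1 read 9.81, 10.32 and 7.95 in controls and 11.14, 8.65 and 8.51 after BPA, so BPA replicates 2 and 3 lay closer together than for most members.

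Apart from Ptf1a, the transcription factor genes had narrower ranges than most of the enzymes. Ptf1a read 8.31, 8.34 and 6.33 in controls and 9.76, 7.29 and 6.49 after BPA, a range of 3.44 in the common order. Nr5a2 read 6.93, 7.05 and 6.17 in controls and 7.53, 6.25 and 6.22 after BPA. That was its 1 probe set above the filter, and the other 3 spanned 0.24 to 0.48. Rbpjl, below the filter, read 6.32, 6.81 and 6.06 in controls and 7.03, 6.17 and 5.63 after BPA. It was highest in BPA replicate 1 as well, and lowest in BPA replicate 3. In Ptf1a, control replicate 3 and BPA replicate 3 lay below the filter level of 6.60. In Nr5a2, so did control replicate 3 and BPA replicates 2 and 3. The ranges of Ptf1a, Nr5a2 and Rbpjl thus rest in part on dim values.

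Bhlha15, which encodes a factor that organises secretory cells, tracked the enzymes least. It read 11.38, 11.30 and 11.21 in controls and 11.87, 11.83 and 11.55 after BPA, a range of 0.66. All 3 BPA arrays lay above all 3 controls, and control replicate 3 was 0.085 below control replicate 2. Likeness was measured as Pearson's r between a gene's values over the 6 arrays and the mean of the other acinar genes, given as a description without a p. It was 0.45 for Bhlha15, 0.85 for Klk1 and 0.89 for Nr5a2, and above 0.95 for 18 of the 26 genes. Relative to the median of the other members, Bhlha15 changed by 0.14 per unit of log2 signal, Cpa1 by 0.88, Gp2 by 1.75 and Prss3 by 2.42. Most of the acinar genes thus shared an order of arrays but not a size of change in signal. The part of brightness and of the choice of probe set in that size was not tested.

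Probe sets of the same gene differed in how far they followed the enzymes. Klk1 encodes tissue kallikrein, a member of a large family of near-identical genes. Its brightest probe set, which represents it above, read 11.30, 11.49 and 11.05 in controls and 11.68, 11.12 and 10.85 after BPA. Another read 11.62, 12.39 and 8.70 in controls and 13.28, 10.85 and 9.67 after BPA, a 23.9-fold range with an r of 0.99. A further probe set lay within 0.067 of the latter on every array, and the last one stayed between 9.35 and 9.58. Zg16, the gene of a granule lectin, read 14.33, 14.49 and 13.49 in controls and 14.69, 13.87 and 13.44 after BPA on its brightest probe set, a range of 1.25 against 2.01 and 2.96 on the others. BPA replicate 3 was its lowest array, just below control replicate 3. Cela3b read 14.92, 15.05 and 13.58 in controls and 15.09, 14.71 and 14.26 after BPA on its brightest, a range of 1.51 against 2.04 to 3.65 on the others. With the mean of each gene's probe sets in place of the brightest, 22 of the 26 genes spanned 2 or more.

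**Figure D2:**
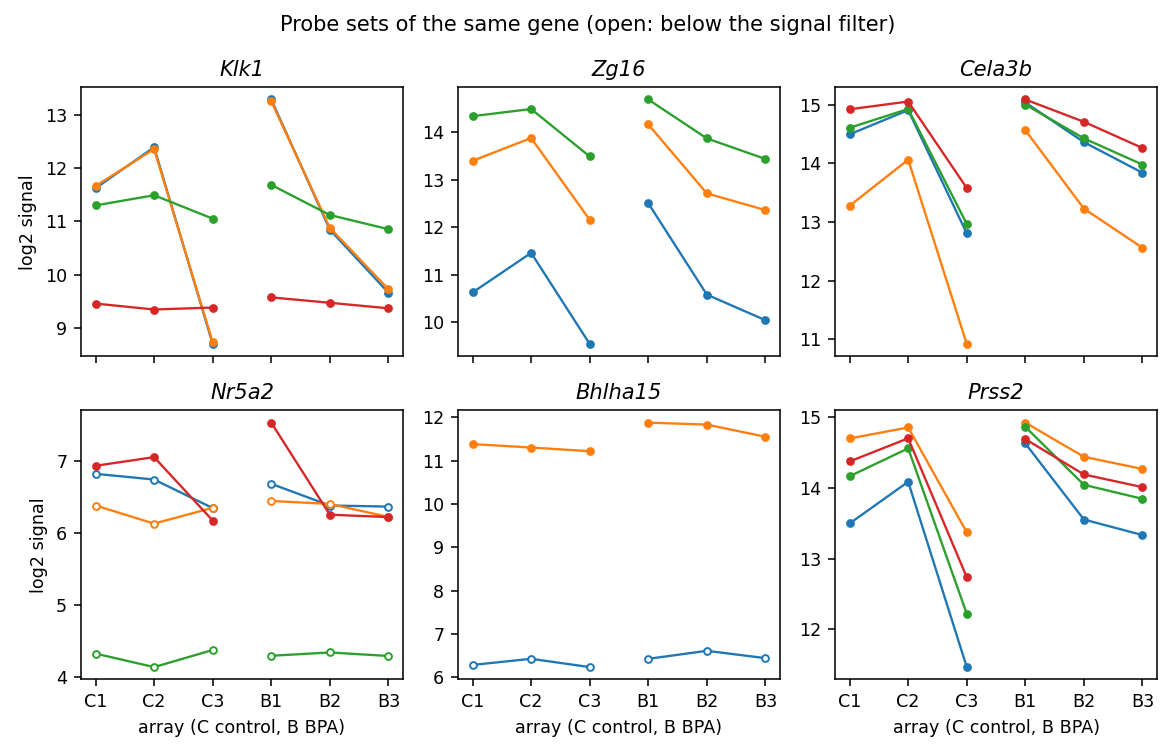
Log2 signal of every probe set of 6 acinar cell genes in 3 control (C) and 3 BPA (B) arrays, 1 line per probe set within a group. A pair of Klk1 probe sets falls from above 13 in B1 to below 9 in C3 while the other pair stays within 0.83, and the brighter Bhlha15 probe set is higher in each BPA array than in each control.

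Ranges were narrower, by their median, in probe sets that reached the top of the signal scale. Of the 40 kept probe sets, 22 had a highest signal above 14, and their ranges had a median of 2.22 (1.25 to 4.21). The other 18 had a median of 3.38, from 0.23 on the flat Klk1 probe set to 6.05 for Prss3. The part of signal compression in these ranges was not tested.

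**Figure D3:**
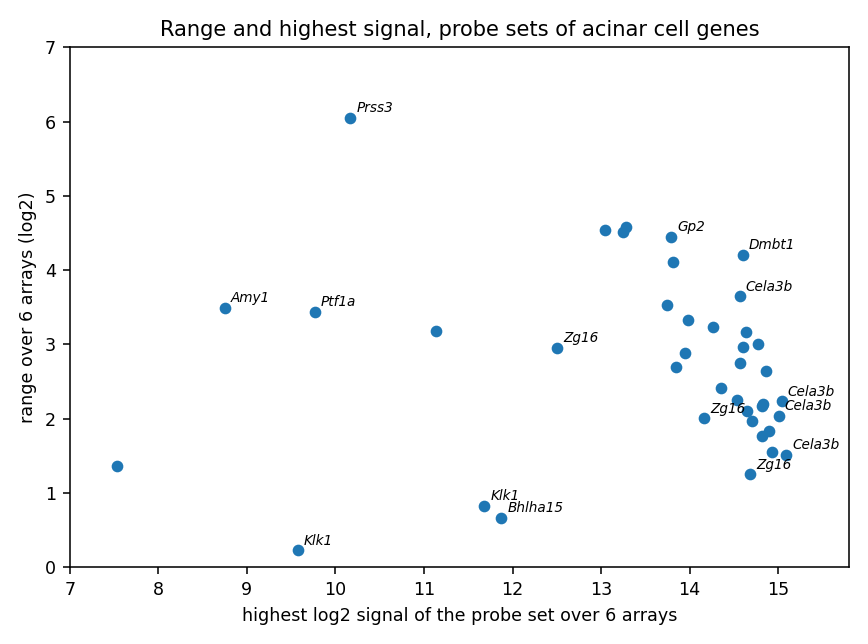
Range over 6 arrays against the highest log2 signal, 1 point for each of the 40 kept probe sets of acinar cell genes. The 22 probe sets that peak above 14 have ranges of 1.25 to 4.21, Prss3 peaks at 10.17 with a range of 6.05, and Bhlha15 and 2 of the Klk1 probe sets lie below 1.

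Between the groups the acinar genes did not differ beyond their spread. Of the 26 genes, 0 passed limma's moderated test at a Benjamini-Hochberg adjusted p under 0.05, as did 0 of 22518 probe sets (0%). The adjusted p of the 26 lay between 0.655 and 0.994, and 1 gene, Bhlha15, had an unadjusted p under 0.05, where 6.47% of all probe sets did. The difference between BPA and control had a median of 0.26 over the 26 genes and 0.03 over all 11787, with 23 of the 26 higher after BPA. These 26 differences are not separate observations, since the genes moved together on the same 6 arrays. The median spread within groups was an SD of 1.05 for the acinar genes and 0.17 for all genes. For 25 of the 26 the difference between groups was smaller than the range within the controls.

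The lipase gene Cel averaged 13.70 ± 1.07 over the BPA arrays and 13.42 ± 1.47 over the controls (SD, n = 3 each), and differed by 0.28 ± 0.81 (SE). Prss3 differed most, by 0.90 ± 1.48 (SE), and Gp2 by 0.76 ± 1.06. On their brightest probe sets, Zg16 and Klk1 were lower after BPA by their means, at -0.11 ± 0.37 and -0.06 ± 0.23, and Nr5a2 at -0.05 ± 0.40. With the mean of each gene's probe sets, Zg16 and Klk1 were higher after BPA, at 0.11 ± 0.53 and 0.19 ± 0.63 (SE). By that measure 25 of the 26 genes were higher. In each of these 6 genes the standard error was larger than the difference. The sign for most of the genes depended on single arrays. Without control replicate 3, 1 of the 26 genes was higher after BPA and the median difference was -0.37. Without BPA replicate 1, 9 were higher and the median was -0.24. Without control replicate 2 or BPA replicate 3, 26 were higher, with medians of 0.69 and 0.66.

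Bhlha15 averaged 11.75 ± 0.18 over the BPA arrays and 11.30 ± 0.08 over the controls (SD, n = 3 each). The difference of 0.45 ± 0.12 (SE) missed the threshold of limma's test (adjusted p = 0.655, and 0.202 to 0.9987 over 18 alternatives). It was the 1 acinar gene of 26 whose BPA arrays all lay above the controls, where 8.48% of all genes did, and 0 had all BPA arrays below the controls, where 3.53% of all genes did. The difference lay between 0.39 and 0.55 with each array left out in turn. Its dimmer probe set, below the filter, read 6.43, 6.61 and 6.45 after BPA and 6.29, 6.43 and 6.24 in controls, with overlapping groups.

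**Figure D4:**
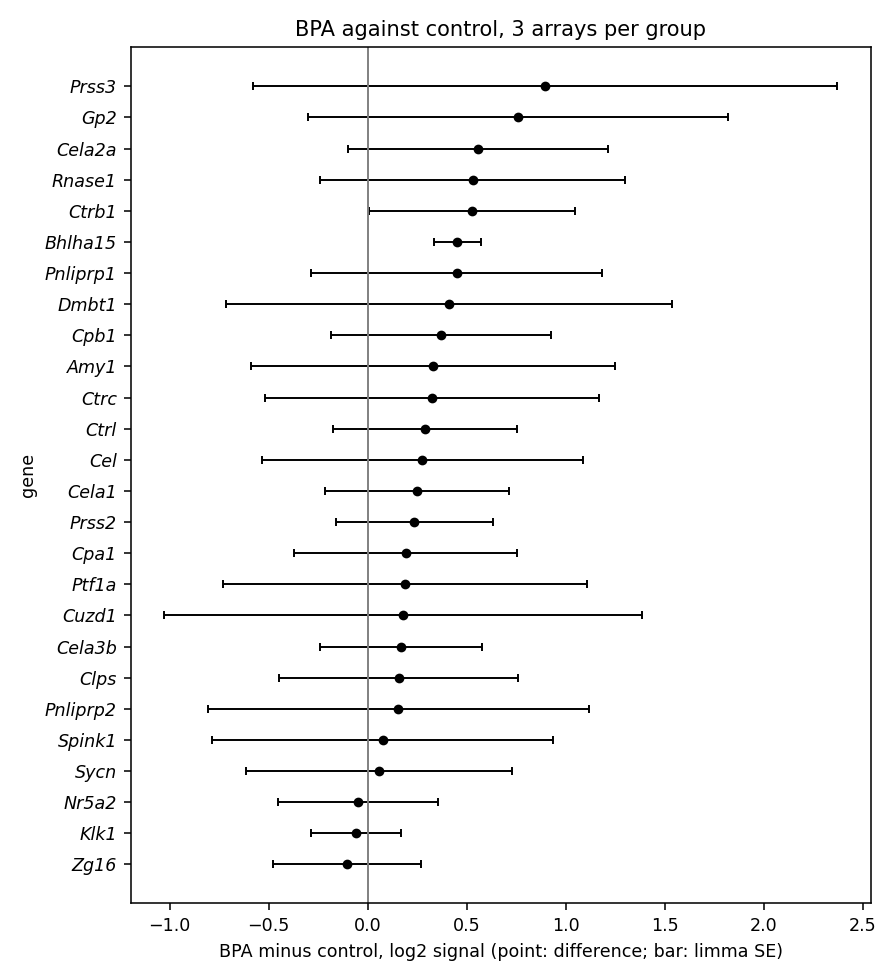
Difference in log2 signal between 3 BPA and 3 control arrays for 26 acinar cell genes, with limma's standard error as bars. For 24 of the 26 genes the bar crosses 0; Bhlha15, at 0.45 with an SE of 0.12, has the shortest bar and Prss3 the longest.

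Other acinar genes, from a separate list, moved in part with the enzymes. Of 28 listed, 18 were measured, 0 passed the test in either direction, 12 were higher and 6 lower after BPA, and the median difference was 0.22. Of the 18, 6 kept the common order of arrays: Pla2g1b (a secreted phospholipase), Serpini2 (a protease inhibitor), Pdia2 (a pancreatic disulfide isomerase), Aqp12 (an acinar aquaporin), Cckar (the cholecystokinin receptor) and Tff2 (a trefoil peptide). Cckar read 7.94, 9.10 and 5.37 in controls and 9.84, 7.41 and 5.95 after BPA. All 6 were also among the 10 measured genes outside the members that were most like the acinar mean over the 6 arrays (r of 0.95 to 0.99, of 92 genes with a range of 2 or more). The other 4 were Reg1, Reg2, the stromal proteoglycan gene Lum and the lipid droplet gene Hsd17b13. Among the 18, Tmed6 and Slc39a5 missed the common order but still followed the acinar mean (r of 0.95 and 0.93). Creb3l1 and Muc13, also of the 18, ran against it (r of -0.99 and -0.71). Creb3l1 read 8.32, 8.16 and 8.84 in controls and 7.96, 8.35 and 8.53 after BPA. Muc13 stood at 7.93 in control replicate 3, against 6.66 to 6.82 on the remaining arrays. The 6 measured Reg genes, lectins made by acinar cells, were all lowest in control replicate 3 and highest in BPA replicate 1, and Reg1 kept the full order, while Reg3a spanned 7.46.

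The medians of lists of the islet's own cells stayed nearly level, although single genes in them did not. The median of 12 beta cell genes lay between -0.07 and 0.07 on the 6 arrays and that of 7 genes of alpha, delta and PP cells between -0.11 and 0.07, each relative to the gene's mean. Ins2 is near the top of the scale, which limits what it can show. Slc2a2, the glucose transporter gene, spanned 0.21 but also peaked above 14, at 14.01. So did Iapp, Ero1b, Gcg, Sst, Ppy and Ttr peak above 14. The part of signal compression in these levels was not tested. Pcsk1, a prohormone convertase gene, spanned 0.72, from 11.51 in control replicate 3 to 12.23 in BPA replicate 1, and had an r of 0.84 with the acinar mean. The incretin receptor gene Glp1r spanned 1.14 and the pancreatic polypeptide gene Ppy 0.92, neither with those extremes. Irx2 also had an r of 0.84 with the acinar mean, on a range of 0.45. Other genes of these lists ran against that mean on small ranges. The r was -0.93 for Slc30a8, -0.89 for Abcc8 and -0.86 for Ttr, which spanned 0.20, 0.31 and 0.25. Duct cell genes (11 measured of 18) had medians between -0.04 and 0.05, and 0 of them kept the common order. Krt19, a keratin that marks duct cells, read 6.96 to 7.51. Muc1, a membrane mucin gene, spanned 2.41, from 6.27 in control replicate 3 to 8.68 in BPA replicate 1. Its r with the acinar mean was 0.78, that of the claudin gene Cldn7 was 0.80 and that of Bicc1 was -0.85, so genes of the duct list moved in opposite directions behind its level median.

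Stromal and immune genes moved with the acinar genes in part. Of 16 stellate cell and fibroblast genes, 9 were lowest in control replicate 3 and 7 highest in BPA replicate 1, and the list's summed linear signal was 16241 to 21522 in controls and 20314 to 27571 after BPA. The receptor gene Pdgfra kept the common order (range 1.72) and the proteoglycan genes Lum and Dcn spanned 2.51 and 1.90, but the pericyte gene Pdgfrb was lowest in BPA replicate 1, at 9.49. Fn1, the fibronectin gene, had the widest range of the list, 3.95: it read 11.14 in BPA replicate 1 and 7.19 to 8.46 on the other arrays, outside the common order. Of 13 macrophage and lymphocyte genes, 6 were lowest in control replicate 3 and 8 highest in BPA replicate 1 (summed linear signal 8499 to 11444 in controls, 9572 to 13140 after BPA). Lyz2 read 10.77 in BPA replicate 1 and 8.08 to 9.22 on the other arrays. Adgre1 had an r of 0.96 with the acinar mean, while Cd74 and Cd3e ran against it (r of -0.90 and -0.79). Endothelial genes (12 measured) had list medians of -0.13 to 0.16, and 0 were lowest in control replicate 3 and 1 highest in BPA replicate 1. Their r with the acinar mean reached -0.91 for Plvap and 0.37 for Emcn. The part of these cells in the acinar values was not tested.

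**Figure D5:**
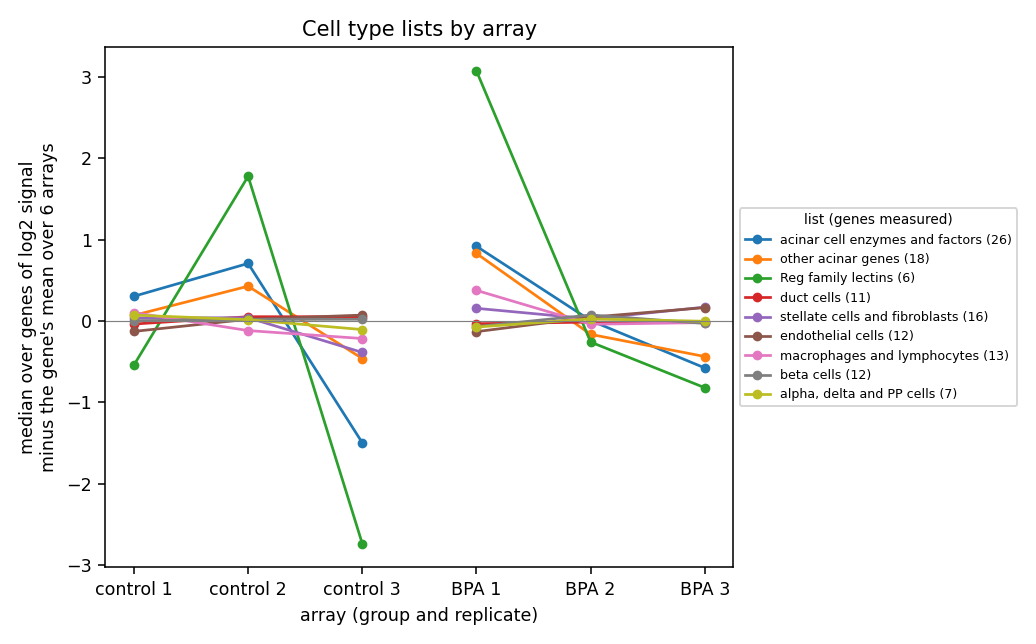
Median over the genes of each list of the log2 signal minus the gene's mean, by array, with the number of genes measured in the legend. The medians of acinar, other acinar and Reg genes are highest in BPA 1 and lowest in control 3. For other acinar genes control 3 (-0.46) is close to BPA 3 (-0.44). The medians of beta cell, other endocrine and duct genes stay between -0.11 and 0.07.

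The promoters of members were also set beside each other. Whether their motifs bear on the order of the arrays was not tested. RefSeq promoters (GRCm38.p6) were found for 22 of the 27 genes, 24 promoters in all, and the 250 bases before the start were searched on both strands. CACCTG, an E-box form that PTF1A can bind, was in 13 of the 24 (54.2%) and in 17.2% of all 32851 promoters. TTTCCC, the letters of the part that RBPJL contacts, was in 6 of the 24 (25%) and in 21.9% of all. Both were in 4 of the 24 (16.7%) and in 3.61% of all. GATAAG, searched after the letters were seen, was in 10 of the 24 (41.7%) and in 6.55% of all. TATAAA was in 6 of the 24, and in 12.4% of all. In the members these motifs overlapped CACCTG at 0 places. Ptf1a itself, with a range of 3.44, held neither CACCTG nor TTTCCC in this window. Nor did Amy1, Pnliprp1, Gp2, Cuzd1, Rnase1 and Sycn, whose r with the other members was 0.98 to 0.99. The 4 promoters with both motifs are Cela1 at chr15:100687921-100688170 (minus strand), Cel at chr2:28563404-28563653 (minus), Cela2a at chr4:141826006-141826255 (minus) and Prss2 at chr6:41521526-41521775 (plus). They are shown with that of Bhlha15 at chr5:144190036-144190285 (plus), the gene that followed the enzymes least and that holds CACCTG, read as CAGGTG, at 2 places. Each runs 5′ to 3′ towards the start, and capitals mark CACCTG and TTTCCC or their reverse complements. In Cela1 the motifs stand 4 bases apart, and in Cel the nearest pair 15.
Cela1: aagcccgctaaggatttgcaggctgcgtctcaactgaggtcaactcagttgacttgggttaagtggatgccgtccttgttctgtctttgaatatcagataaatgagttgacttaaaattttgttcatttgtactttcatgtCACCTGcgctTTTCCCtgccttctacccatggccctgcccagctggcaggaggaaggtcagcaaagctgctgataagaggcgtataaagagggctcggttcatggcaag
Cel: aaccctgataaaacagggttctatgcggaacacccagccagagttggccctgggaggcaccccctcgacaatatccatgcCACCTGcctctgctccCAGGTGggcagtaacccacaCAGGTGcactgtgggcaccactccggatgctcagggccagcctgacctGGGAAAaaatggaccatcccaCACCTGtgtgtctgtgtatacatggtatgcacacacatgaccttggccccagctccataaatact
Cela2a: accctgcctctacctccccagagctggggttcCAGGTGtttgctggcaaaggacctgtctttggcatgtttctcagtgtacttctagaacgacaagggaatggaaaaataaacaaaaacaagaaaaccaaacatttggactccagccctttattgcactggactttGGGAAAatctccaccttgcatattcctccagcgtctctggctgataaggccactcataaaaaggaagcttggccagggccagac
Prss2: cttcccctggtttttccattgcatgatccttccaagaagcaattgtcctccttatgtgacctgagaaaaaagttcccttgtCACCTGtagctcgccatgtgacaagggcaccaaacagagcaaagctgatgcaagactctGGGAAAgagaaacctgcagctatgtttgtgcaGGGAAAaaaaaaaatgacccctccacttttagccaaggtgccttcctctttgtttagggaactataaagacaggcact
Bhlha15: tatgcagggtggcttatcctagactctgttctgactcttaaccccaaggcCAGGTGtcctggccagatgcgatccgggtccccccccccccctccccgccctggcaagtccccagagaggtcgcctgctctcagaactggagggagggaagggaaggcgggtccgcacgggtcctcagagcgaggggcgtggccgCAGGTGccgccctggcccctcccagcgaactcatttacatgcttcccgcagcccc
A match is a description of these letters, and Bhlha15 shows that CACCTG was also in the promoter of a member that did not follow the others.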

How the data were processed

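The authors deposited 1 log2 value per probe set and array, scaled alike (medians 6.55 to 6.65). MAS5 is named without a version or role, per the submitters' processing notes, so the summary method stays unknown and limits what dim probe sets show. No detection calls were used. The values were used as deposited. The table held 45101 probe sets, and 64 spike-in and quality controls of the array were left out. Of the rest, 34945 had 1 gene in the platform annotation, 932 several and 9160 none. Probe sets with a mean above the median of all were kept (22518), and each of 11787 genes was represented by its brightest kept probe set, a rule that decides the values of Klk1, Zg16 and Cela3b.

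Groups and replicate numbers came from the sample titles. The 2 groups were compared with limma 3.58.1 (R 4.3.3; lmFit and trended eBayes, two-sided), adjusted by Benjamini-Hochberg over all kept probe sets with a threshold of 0.05; the fit was tested on simulated data. The labels call the samples biological replicates. With 3 arrays per group their number limits the precision. Every member was accounted for. Values per array are given for those with the widest and narrowest ranges, those farthest from the others, the transcription factors and those whose probe sets disagree. Outside the members, the 10 most like and the 5 least like were named. The members and lists were chosen with earlier results of these data known. Alternatives were other scalings, filters, variance models, the replicate block, arrays left out, the acinar mean as covariate, and other gene representation. Figures were drawn with matplotlib 3.10.9 in Python 3.11.15.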

Additional observations from a re-analysis of the deposited data

How the results depend on the processing

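The count of probe sets past the threshold in limma was 0 in each of 16 alternatives, and that of acinar genes 0 in each of 18. The median difference of the acinar genes ranged from -0.37 to 0.69 with each array left out in turn. Without replicate 3 of both groups it was -0.031. With the acinar mean as a covariate it was -0.039, but that fit sets the mean of these differences to 0, so the value tells nothing about BPA. The median difference had the opposite sign in 4 of 15 alternatives, the covariate fit among them. The range of the acinar median over the arrays (2.42) was 1.499 to 2.46 with each array left out and 1.02 without replicate 3 of both groups, where 5 of 26 genes spanned 2 or more. The common order held for 18 to 24 genes in 14 alternatives chosen after seeing the data. The 18 came with the filter at the 75th percentile, which left 22 acinar genes. With arrays left out, the order was that of the 5 or 4 arrays that remained, which is easier to keep. Of all genes, 1.71% to 3.67% kept it then, against 0.882% on 6 arrays. Of the 26 differences, 25 had the opposite sign in 1 or more alternatives; Bhlha15 had not. Under the scalings tried the medians were 0.27 to 0.29. The deviations of same-numbered samples correlated at 0.476, 0.078 and 0.706, and those of differently numbered samples at -0.665 to 0.427. The labels name no pairs, so the main fit took none. Whether the numbers mark pairs was not tested. With the replicate block 0 probe sets passed, the smallest adjusted p was 0.190 and 3042 had an unadjusted p under 0.05, against 1458 without it. With the acinar mean as covariate 0 passed and 2042 had an unadjusted p under 0.05. The cause of these changes was not tested.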

Other observations

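In the list of other acinar genes, 3 genes of regulated secretion, chosen after their values were seen, did not keep the common order. Rab3d, the gene of a GTPase on zymogen granules, read 11.26, 11.63 and 11.96 in controls and 11.73, 11.81 and 11.86 after BPA, highest in the control array where the enzymes were lowest. Vamp8, which encodes a SNARE of granule fusion, read 11.16, 11.53 and 11.40 in controls and 11.91, 11.82 and 11.67 after BPA, so all BPA arrays lay above the controls, as they did for 8.48% of all genes. The difference was 0.43 ± 0.13 (SE) and did not pass limma's test (adjusted p = 0.674). Stx3, a syntaxin gene, went the other way: it read 11.41, 11.37 and 11.49 in controls and 11.14, 11.18 and 11.32 after BPA, so all BPA arrays lay below the controls, as they did for 3.53% of all genes. That difference was -0.21 ± 0.10 (SE), and it did not pass limma's test either (adjusted p = 0.791).

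Of 853 genes outside the members with a range of 1 or more, 12 had an r below -0.95 with the acinar mean over the 6 arrays. The 5 lowest were 5730480H06Rik, Vgf, which encodes a secreted neuroendocrine protein, the synaptic adhesion gene Nlgn2, the kinase gene Wnk4 and the water channel gene Aqp4. Vgf read 8.92, 8.53 and 9.72 in controls and 8.51, 8.92 and 9.35 after BPA, highest in control replicate 3 and lowest in BPA replicate 1.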
